A study of Homo sapiens with 10 samples.

Results

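The 10 genes described here, of the extracellular matrix, were chosen by name as listed matrix glycoproteins and elastic fibre genes, among 24050 genes counted in either of the 2 cell types. They are FN1, POSTN, TNC, THBS1, THBS2, SPARC, FBN1, FBN2, ELN and FBLN1, and all 10 were counted in both. The data are RNA-seq counts per gene from HEK293T cells, of human embryonic kidney, an established line, and from neural progenitor cells (NPCs) that were differentiated through embryoid bodies from H1, an embryonic stem cell line. In each cell type wild-type (WT) cells were compared with cells with a homozygous deletion of ZNF274, a KRAB zinc finger repressor gene, made with CRISPR-Cas9 and a pair of guide RNAs (ZNF274 KO). There were 3 WT and 3 KO libraries of HEK293T cells and 2 WT and 2 KO libraries of NPCs, from clones described as independent, and cells that had received the guides were selected with puromycin. The labels do not say which library is which clone or culture, so the p-values measure the spread between these libraries, and a difference between clones that is not due to the deletion cannot be told apart from it.

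Libraries are named here by the number in their label: S15, S16 and S17 for WT and S18, S19 and S20 for KO HEK293T cells, S3 and S5 for WT and S1 and S2 for KO NPCs. Total counts on genes were 18621266 to 32285876 per library, so that 3 counts, used as the floor below which a level is not interpreted, correspond to 0.0917 to 0.154 units of CPM, the normalised count scaled to a library of fixed size. ZNF274 had 445, 423 and 492 counts in WT HEK293T cells, 491 and 496 in WT NPCs, and 0 in each of the 5 KO libraries. Among neural progenitor markers, WT NPCs had NES at 2273 and 3003 CPM and SOX2 at 228 and 220 CPM, but HES5 was below 0.3 CPM in both WT NPC libraries. In HEK293T cells the kidney markers PAX2 and PAX8 were below 1 CPM in every library.

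Fibronectin, encoded by FN1, is a large secreted dimer that cells assemble into fibrils through integrins, and many other matrix proteins are laid down on it. Fibrillins (FBN1, FBN2) form the microfibrils onto which elastin (ELN) is deposited, and fibulin-1 (FBLN1) binds both fibronectin and elastic fibres. Periostin (POSTN), tenascin-C (TNC), the thrombospondins (THBS1, THBS2) and osteonectin (SPARC) are matricellular proteins, which are secreted into the matrix and modulate adhesion and collagen assembly more than they build it. Mesenchymal cells are a main source of most of them, and radial glia and neural stem cells are known to make TNC.

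In WT cells all 10 genes were higher in NPCs than in HEK293T cells, a call made for 25.2% of all genes tested. The summed level of the 10 genes was 132, 217 and 146 CPM in WT HEK293T cells and 3536 and 3384 CPM in WT NPCs. Loss of ZNF274 was followed by no called change of these genes in HEK293T cells, where 0.478% of all genes tested were called higher and 0.0105% lower. In NPCs 6 of the 10 rose (FN1, POSTN, TNC, THBS1, THBS2 and FBN1), 2 fell (ELN and FBLN1), and SPARC and FBN2 were not called, against 8.45% of all genes tested called higher and 8.36% lower. The summed level in KO NPCs was 6825 and 5425 CPM. Called means a fold change (FC) above 2 together with an adjusted p below 0.05 in the quasi-likelihood test of edgeR.

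**Figure D1:**
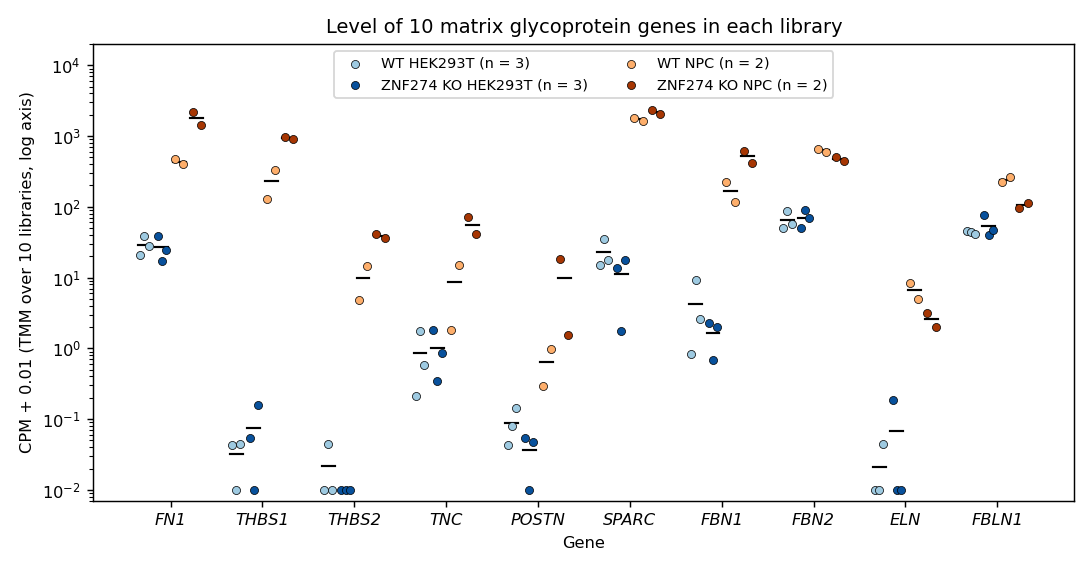
Level of each of the 10 genes in each of the 10 libraries, in CPM + 0.01 on a log axis, with points for libraries and a black line at the mean of each group. Each gene is higher in the WT NPC libraries than in every WT HEK293T library, and THBS1, THBS2 and ELN lie at or near 0 counts in HEK293T cells.

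In hg19 coordinates of the lifted GENCODE annotation, FN1 (ENSG00000115414) spans chr2:216225163-216300796 and SPARC (ENSG00000113140) chr5:151040657-151066536, both on the minus strand. THBS1 (ENSG00000137801, plus strand) spans chr15:39873280-39891667 and FBN1 (ENSG00000166147, minus strand) chr15:48700510-48937918. FBN2 (ENSG00000138829, minus strand) spans chr5:127593601-127994878, FBLN1 (ENSG00000077942, plus strand) chr22:45898118-45997015 and ELN (ENSG00000049540, plus strand) chr7:73442119-73484237. THBS2 (ENSG00000186340) lies at chr6:169615875-169654145, TNC (ENSG00000041982) at chr9:117781854-117880486 and POSTN (ENSG00000133110) at chr13:38136720-38172981, all on the minus strand. THBS1, THBS2, SPARC and FBN2 overlap another counted gene (FSIP1, THBS2-AS1, CLMAT3 and SLC27A6). The library kit keeps the strand of the RNA, but the sources used here do not say whether counting used it, and without it reads of these genes and of their neighbours cannot be told apart.

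Promoter windows were read from RefSeq (GRCh38.p14), from 250 bases before to 50 bases after the start, for 9 of the 10 genes (all but ELN), and each matched GRCh37 exactly at 1 place. The bases before the start are shown for FN1, both thrombospondins and both fibrillins, a part of the genes that rose in KO NPCs together with FBN2, which was not called. They are written 5′ to 3′ on the gene's own strand, up to 120 bases before the RefSeq start and leaving out bases that any annotated exon of the gene covers. Capitals mark GGGCGG (the GC box bound by Sp1), GGAATG (the TEAD element) and CAGAC (a SMAD-binding element), each as written or as its reverse complement.
FN1 (chr2:216300797-216300911, minus strand): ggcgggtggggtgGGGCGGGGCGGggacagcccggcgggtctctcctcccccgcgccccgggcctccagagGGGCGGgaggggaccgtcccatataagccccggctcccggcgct
THBS1 (chr15:39873160-39873279, plus strand): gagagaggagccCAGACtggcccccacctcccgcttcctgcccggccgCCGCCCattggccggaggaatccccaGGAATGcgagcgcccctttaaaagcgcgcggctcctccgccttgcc
THBS2 (chr6:169653992-169654061, minus strand): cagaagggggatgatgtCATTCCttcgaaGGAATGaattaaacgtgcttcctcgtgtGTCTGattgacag
FBN1 (chr15:48937168-48937287, minus strand): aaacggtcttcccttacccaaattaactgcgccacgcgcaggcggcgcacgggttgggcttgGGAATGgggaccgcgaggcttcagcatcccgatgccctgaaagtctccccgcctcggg
FBN2 (chr5:127873939-127874058, minus strand): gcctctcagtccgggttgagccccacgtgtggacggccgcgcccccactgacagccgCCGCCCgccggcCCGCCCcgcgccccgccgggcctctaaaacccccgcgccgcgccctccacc

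GGAATG or its reverse complement was found in the 300-base window of 4 of the 9 genes (THBS1, THBS2, SPARC and FBN1), and in 14.0% of all 35116 RefSeq promoters. THBS2 holds it at positions -103 and -91, THBS1 at -46 and FBN1 at -58, counted from the start to the first base of the match. SPARC holds it at -17 and was not called in KO NPCs, while FN1, TNC and POSTN rose without a match. GGGCGG was found in 5 (FN1, TNC, THBS1, FBN2 and FBLN1), against 45.0% of all promoters, with 6 matches in FN1, some of which overlap. CAGAC was found in 6 (POSTN, TNC, THBS1, THBS2, SPARC and FBLN1), against 45.3%. The letters TATAAA, the TATA box, were found in POSTN and THBS2, at position -29 in both, and in 11.5% of all promoters. TGANTCA, the AP-1 site, was found in POSTN alone, against 7.71%, and CACCTG, an E-box, in none of the 9, against 20.6%. All motifs were searched on both strands, and a match is a description of the sequence.

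The levels of the genes in WT cells were compared first. CPM per kilobase of all annotated exons of a gene (RPKM) allow levels of different genes to be ordered. In WT NPCs SPARC was first, at 372 ± 28.5 RPKM (SD, n = 2). FBN2 (35.4 ± 2.25), FBLN1 (33.2 ± 4.08), FN1 (25.4 ± 3.001) and THBS1 (25.3 ± 15.9) followed, in units of RPKM. Among these 4 the libraries of each neighbouring pair overlapped except for FBLN1, at 30.3 and 36.0 RPKM, and FN1, at 27.5 and 23.2 RPKM. FBN1 had 9.14 ± 3.94 RPKM, and THBS2 (1.36 ± 0.975), ELN (1.02 ± 0.375), TNC (0.889 ± 0.990) and POSTN (0.115 ± 0.0892) were the lowest. THBS2, ELN and TNC overlapped one another, and the other neighbours in this order did not. When the length of the longest transcript was used instead, FBN2 and FBLN1 exchanged places, and so did THBS2 and ELN.

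In WT HEK293T cells the order was FBLN1 (5.93 ± 0.316 RPKM, SD, n = 3), SPARC (4.91 ± 2.40), FBN2 (3.63 ± 1.15) and FN1 (1.70 ± 0.519), and the libraries of SPARC overlapped with those of FBLN1 and of FBN2, while those of FN1 lay below. FBN1 had 0.228 ± 0.241 RPKM and TNC 0.0881 ± 0.0850 RPKM, with overlapping libraries. The means of POSTN, THBS1, THBS2 and ELN were below 0.02 RPKM.

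All 10 genes were called higher in WT NPCs than in WT HEK293T cells, and for each the libraries of the 2 cell types did not overlap. Of 19255 genes tested in this comparison 25.2% were called higher and 15.5% lower. In 39.3% of them every NPC library lay above every HEK293T library. Their median log2 FC was 4.62, against 0.125 over all genes. Each cell type was deposited as a count table of its own, and a difference between the tables other than cell type cannot be told apart from it.

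FBN2, a fibrillin of early development, had 49.5, 88.0 and 56.8 CPM in WT HEK293T cells and 659 and 602 CPM in WT NPCs. The log2 FC was 3.28 (SE 0.258, edgeR adjusted p = 5.44e-07). FBLN1 had 45.1, 43.8 and 40.6 CPM in WT HEK293T cells and 221 and 263 CPM in WT NPCs, with a log2 FC of 2.49 (SE 0.227, edgeR adjusted p = 1.88e-06). These were the highest of the 10 in WT HEK293T cells by CPM, and FBLN1 varied least between the libraries there.

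FN1 had 21.1, 38.8 and 27.7 CPM in WT HEK293T cells and 473 and 400 CPM in WT NPCs, a log2 FC of 3.90 (SE 0.324, edgeR adjusted p = 8.66e-07). SPARC had 14.9, 35.5 and 17.9 CPM against 1818 and 1631 CPM, a log2 FC of 6.25 (SE 0.667, edgeR adjusted p = 6.99e-06). FBN1, the main fibrillin of adult tissues, had 0.830, 9.28 and 2.57 CPM against 221 and 118 CPM, a log2 FC of 5.33 (SE 0.684, edgeR adjusted p = 3.11e-05), which was 6.64 without S16. Library S16 was the highest WT HEK293T library for FN1, SPARC, FBN1, FBN2 and TNC, and its FBN1 level was 11.2 times that of S15.

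THBS1 is an inhibitor of angiogenesis that also activates latent TGF-beta. It had 1, 0 and 1 counts in WT HEK293T cells, below the floor, and 2713 and 6517 counts in WT NPCs. The ratio of the pooled levels was 10100, with a 95% exact interval for counting error of 2790 to 83400. THBS2 had 0, 1 and 0 counts against 101 and 287 counts, a ratio of 849 (151 to 33600), and ELN 0, 0 and 1 counts against 177 and 96 counts, a ratio of 597 (106 to 23700). These 3 genes were thus at or under the floor in HEK293T cells of both genotypes, except for THBS1 in KO library S20 and ELN in KO library S18, with 4 counts each.

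TNC and POSTN had the smallest margins. TNC had 0.199, 1.76 and 0.575 CPM in WT HEK293T cells and 1.81 and 15.2 CPM in WT NPCs, with a log2 FC of 3.33 (SE 0.849, edgeR adjusted p = 0.00494). The lower NPC library, S3, lay close to the highest HEK293T library, S16, and without the other NPC library, S5, the log2 FC was 1.10 (edgeR adjusted p = 0.335). It was 4.44 without S16. POSTN had 1, 2 and 4 counts in WT HEK293T cells against 6 and 19 in WT NPCs, a log2 FC of 2.91 (SE 1.13, edgeR adjusted p = 0.0435). This call was lost without S5, at a log2 FC of 1.79 (edgeR adjusted p = 0.369), and without 5 other libraries in turn (S15, S16, S17, S18 or S20), where the adjusted p was 0.0541 to 0.116. It was also lost with voom (adjusted p = 0.219), which called 9 of the 10 genes higher.

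The effect of ZNF274 loss was then compared in HEK293T cells. None of the 8 genes tested was called in either direction, and 0 of the 8 had an unadjusted p below 0.05 in edgeR. THBS2 and ELN had too few counts to be tested. Over all 19018 genes tested the calls were 0.478% higher and 0.0105% lower. The WT and KO libraries overlapped for all 10 genes, while over all genes 6.81% lay higher and 5.63% lower in the KO without overlap. The median log2 FC was 0.00285 over the 8 genes, against 0.0106 over all genes. DESeq2 and voom called none of the 8 either.

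FN1 had 39.3, 17.4 and 24.2 CPM in KO HEK293T cells, a range that holds all 3 WT libraries, and a log2 FC of -0.11 (SE 0.295, edgeR adjusted p = 0.955). FBN2 had 49.7, 89.9 and 70.3 CPM, with a log2 FC of 0.12 (SE 0.247, edgeR adjusted p = 0.94). FBLN1 had 75.7, 39.4 and 46.6 CPM, with a log2 FC of 0.32 (SE 0.220, edgeR adjusted p = 0.81). The higher mean of FBLN1 came from library S18, without which its log2 FC was -0.0023.

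SPARC and FBN1 had lower means in KO HEK293T cells, but with wide errors. SPARC had 13.7, 1.77 and 17.95 CPM, a log2 FC of -1.03 (SE 0.603, edgeR adjusted p = 0.775), and its low value stood in S19, which had 58 counts. FBN1 had 2.26, 0.673 and 2.01 CPM, a log2 FC of -1.36 (SE 0.719, edgeR adjusted p = 0.748), which was -0.05 without the WT library S16. S19 was also the lowest KO HEK293T library for FN1, TNC and FBLN1, and the highest for FBN2. TNC had 1.82, 0.336 and 0.857 CPM and a log2 FC of 0.24 (SE 0.740, edgeR adjusted p = 0.961). POSTN, with 1, 0 and 1 counts, and THBS1, with 1, 0 and 4, were too low for their fitted changes to be read.

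In NPCs 6 of the 10 genes were called higher in the KO and 2 lower, and for 7 genes both KO libraries lay above both WT libraries and for 3 below them. Without S1 the counts called were 2 higher and 1 lower. Changes in NPCs were widespread, since of 20577 genes tested 8.45% were called higher and 8.36% lower. The KO libraries lay above the WT libraries without overlap in 33.9% of all genes and below them in 33.8%. The 10 genes had a median log2 FC of 1.78, against -0.0219 over all genes. In bulk RNA a change in the number of cells of a type and a change in RNA per cell cannot be told apart.

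**Figure D2:**
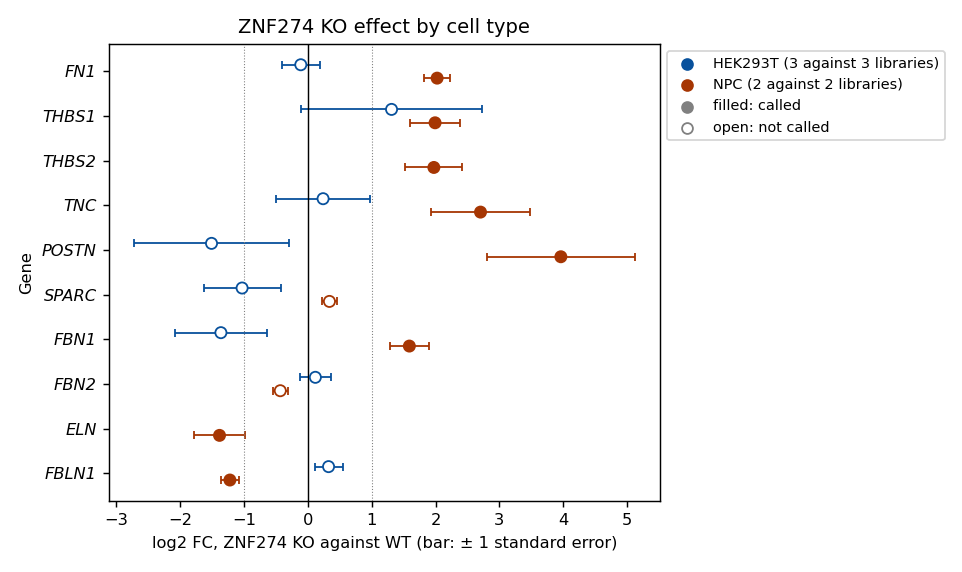
Fitted log2 FC of ZNF274 KO against WT for each gene in HEK293T cells (blue) and NPCs (brown), with bars of 1 standard error, filled points for called genes and dotted lines at an FC of 2. No HEK293T point is filled, THBS2 and ELN have no HEK293T estimate, and in NPCs the called changes run from -1.38 for ELN to 3.96 for POSTN.

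FN1 rose most clearly. It had 473 and 400 CPM in WT NPCs and 2162 and 1426 CPM in KO NPCs, that is 9956 and 7800 counts against 43389 and 31061. Both KO libraries were more than 3 times as high as either WT library, and the KO libraries differed by 1.52 times between themselves. The log2 FC was 2.02 (SE 0.207, edgeR adjusted p = 0.000687), an FC of 4.07. It ranged from 1.68 to 2.29 as each NPC library was left out.

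THBS1 had 129 and 334 CPM in WT NPCs and 963 and 901 CPM in KO NPCs. The KO libraries lay close together, while the WT libraries differed by 2.59 times. The log2 FC was 1.99 (SE 0.386, edgeR adjusted p = 0.00906), and it was 2.83 without the WT library S5 and 1.46 without S3. THBS2, the paralogue of THBS1, had 4.80 and 14.7 CPM in WT and 41.5 and 35.9 CPM in KO NPCs. Its log2 FC was 1.97 (SE 0.447, edgeR adjusted p = 0.0166), with S5 again the higher WT library. Without S5 the log2 FC of THBS2 was 2.99, without S3 it was 1.38, and without the KO library S1 the call was lost (edgeR adjusted p = 0.0838). Both thrombospondins thus had about the same fitted change, at levels that differed by more than 10 times in CPM.

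TNC, which binds fibronectin and counteracts cell spreading, had 1.81 and 15.2 CPM in WT NPCs and 70.8 and 40.9 CPM in KO NPCs. The KO libraries did not overlap with the WT libraries, but the WT libraries differed by 8.44 times. The log2 FC was 2.71 (SE 0.773, edgeR adjusted p = 0.0388). This call depended on the libraries and the tool. It was lost without S1 (edgeR adjusted p = 0.172), without S2 (edgeR adjusted p = 0.0638) and with DESeq2 (adjusted p = 0.104), and the log2 FC was 4.92 without S5 and 1.86 without S3.

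POSTN, which links collagen to fibronectin and TNC, had the largest fitted change and the highest adjusted p among the members called in NPCs. It had 6 and 19 counts in WT NPCs and 367 and 33 counts in KO NPCs, or 0.285, 0.975, 18.3 and 1.52 CPM. The high value stood in S1, which was 12.1 times S2, and S2 was only somewhat above the higher WT library. The log2 FC was 3.96 (SE 1.15, edgeR adjusted p = 0.0412), and 1.24 without S1 (edgeR adjusted p = 0.405). It was 5.06 without S5, 3.32 without S3 and 4.84 without S2, and the call was lost with voom (adjusted p = 0.247).

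SPARC, a collagen-binding glycoprotein and the most abundant of the 10, had 1818 and 1631 CPM in WT NPCs and 2347 and 2056 CPM in KO NPCs. Both KO libraries were above both WT libraries, by little. The log2 FC was 0.34 (SE 0.116, edgeR adjusted p = 0.07), and the gene was not called.

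The elastic fibre genes did not move together. FBN1 had 221 and 118 CPM in WT NPCs and 618 and 411 CPM in KO NPCs, a log2 FC of 1.59 (SE 0.310, edgeR adjusted p = 0.00935). The call was lost without S1, where the adjusted p was 0.0577 in edgeR. FBN2 had 659 and 602 CPM in WT NPCs and 506 and 438 CPM in KO NPCs, a log2 FC of -0.43 (SE 0.117, edgeR adjusted p = 0.0321), short of the FC threshold. By CPM FBN2 was above FBN1 in both WT NPC libraries, by 2.98 and 5.12 times, and in the KO libraries the ratio of FBN2 to FBN1 was 0.819 and 1.06.

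ELN, the core of the elastic fibre, had 177 and 96 counts in WT NPCs and 64 and 43 counts in KO NPCs, or 8.41, 4.93, 3.19 and 1.97 CPM. Both KO libraries were below both WT libraries, and the log2 FC was -1.38 (SE 0.394, edgeR adjusted p = 0.0382). This call was lost without S1 (edgeR adjusted p = 0.0816) or S2 (edgeR adjusted p = 0.209), and without S3 the log2 FC was -0.95, short of the threshold. FBLN1 had 221 and 263 CPM in WT NPCs and 95.6 and 114 CPM in KO NPCs, with little spread within either group. Its log2 FC was -1.22 (SE 0.136, edgeR adjusted p = 0.00099), and it was -1.10 to -1.36 as each NPC library was left out.

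**Figure D3:**
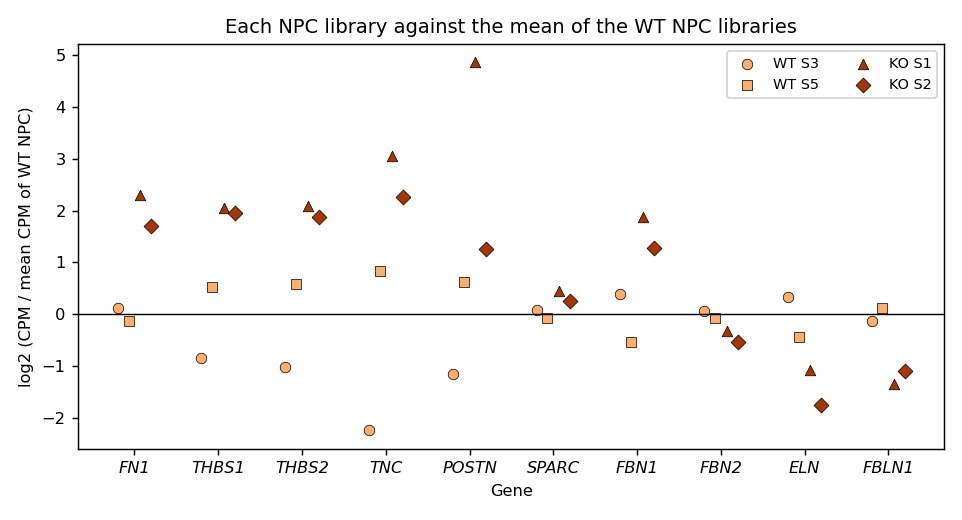
Each NPC library as log2 of its CPM over the mean CPM of the WT NPC libraries, for the 10 genes, with light symbols for WT (S3, S5) and dark symbols for KO (S1, S2). S3 lies well below S5 for THBS1, THBS2, TNC and POSTN and above it for FBN1 and ELN, and S1 lies above S2 for every gene except FBLN1.

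The order of the genes per length also differed in KO NPCs. SPARC stayed first at 475 ± 44.4 RPKM (SD, n = 2), and FN1 (104 ± 30.2) and THBS1 (102 ± 4.80) came next, with overlapping libraries. FBN1 (27.8 ± 7.89) and FBN2 (26.5 ± 2.71) overlapped as well, followed by FBLN1 (14.4 ± 1.76), TNC (5.82 ± 2.21), THBS2 (5.37 ± 0.555, overlapping with TNC), POSTN (1.81 ± 2.17) and ELN (0.393 ± 0.131), in RPKM. The libraries of POSTN and ELN overlapped, and in S2 POSTN, at 0.277 RPKM, lay below ELN, at 0.3003 RPKM. FBLN1 thus ranked below both fibrillins in KO NPCs, and FN1 above them.

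An interaction term asked whether the KO effect differed between NPCs and HEK293T cells, over all 10 libraries and 19255 genes that are in both tables and passed its filter on low counts, of which 6.01% were called with a higher effect in NPCs and 6.22% with a lower one. Of the 10 genes 1 was called in each direction. The effect on FN1 was higher in NPCs by 2.16 (log2, SE 0.446, edgeR adjusted p = 0.00707), and that on FBLN1 lower by a log2 difference of -1.53 (SE 0.323, edgeR adjusted p = 0.00784). Without S1 the adjusted p for FBLN1 was 0.0504 in edgeR. For FBN1 the difference was 2.996 (SE 0.961, edgeR adjusted p = 0.0548), and it was 1.69 without the HEK293T library S16. It was called without S15 (3.49, edgeR adjusted p = 0.0127) or S18 (3.29, edgeR adjusted p = 0.0435). The differences for TNC (2.51, SE 1.22, edgeR adjusted p = 0.192), SPARC (1.39, SE 0.838, edgeR adjusted p = 0.299) and FBN2 (-0.53, SE 0.357, edgeR adjusted p = 0.361) were not called. That of TNC depended on single libraries, at 4.72 without S5, 1.675 without S3 and 1.40 without S16. Those of POSTN, THBS1, THBS2 and ELN rest on HEK293T counts at or near the floor, and none was called by edgeR with all 10 libraries. That of POSTN, 5.49 in edgeR, was called by DESeq2 (adjusted p = 0.00814) but not by voom (adjusted p = 0.247). It was 6.38 without S2 and 2.78 without S1 in edgeR. A called change in NPCs and none in HEK293T cells is thus a called difference, with all 10 libraries in edgeR, for FN1 and FBLN1.

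Proteins that work beside these 10 were examined as lists. Among 20 elastic fibre partners, which include the latent TGF-beta binding proteins, further fibulins, emilins and microfibril-associated proteins, 6 were called higher and 7 lower in KO NPCs, with a median log2 FC of -0.69. Over all genes tested in NPCs 8.45% were called higher and 8.36% lower, with a median of -0.0219. LTBP2, a microfibril-bound member of the latent TGF-beta binding family, rose from 3.43 ± 2.84 CPM (SD, n = 2) to 212 ± 6.72 CPM, a log2 FC of 5.95 (SE 0.478, edgeR adjusted p = 0.00028). LTBP1, which tethers latent TGF-beta to the matrix, fell from 236 ± 40.2 to 15.7 ± 2.23 CPM, a log2 FC of -3.93 (SE 0.175, edgeR adjusted p = 3.29e-05). HMCN1 (log2 FC 2.25, edgeR adjusted p = 0.000381) and FBLN5, needed for elastic fibre assembly (2.08, edgeR adjusted p = 0.0018), were the next highest of those that rose. FBLN7 (-3.79, edgeR adjusted p = 0.000243) and EMILIN3 (-3.20, edgeR adjusted p = 9.16e-05) were next among those that fell.

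Of 42 other matrix glycoproteins 35 were found by name and 33 were tested in NPCs. Among those tested 8 were called higher and 7 lower (all genes 8.45% and 8.36%), with a median log2 FC of -0.015. CYR61, CTGF, NOV, WISP1, WISP2 and WISP3 were on the list but have no result in either cell type. Whether they were counted under other names was not examined. HAPLN1, which links hyaluronan to proteoglycans, rose from 5.20 ± 5.69 to 362 ± 43.1 CPM, a log2 FC of 6.09 (SE 0.701, edgeR adjusted p = 0.00111). TGFBI (log2 FC 4.41, edgeR adjusted p = 4.83e-05), a relative of POSTN, and SMOC2 (3.84, edgeR adjusted p = 0.00141), a relative of SPARC, also rose. SMOC1 fell from 17.2 ± 18.5 CPM (SD, n = 2), with WT libraries far apart, to 0.337 ± 0.0871 CPM, a log2 FC of -5.67 (SE 1.03, edgeR adjusted p = 0.00686). Also lower were the basement membrane proteins FREM2 (log2 FC -4.02, edgeR adjusted p = 0.000185) and FREM1 (-3.96, edgeR adjusted p = 0.000994).

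Of 16 receptors of the 10 proteins 14 could be tested in NPCs, and 5 were called higher and 2 lower (all genes 8.45% and 8.36%), with a median log2 FC of 0.82. ITGA5, whose integrin is the main fibronectin receptor, rose from 127 ± 1.06 to 512.5 ± 58.6 CPM (log2 FC 1.997, SE 0.121, edgeR adjusted p = 9.46e-05). ITGA4 (log2 FC 4.16, edgeR adjusted p = 0.000886) and ITGA8 (5.61, edgeR adjusted p = 0.000475), whose integrins also bind fibronectin, rose as well. ITGA8 stood at or near the floor in WT NPCs, at 0.172 ± 0.0256 CPM, and at 8.78 ± 3.79 CPM in KO NPCs, so the size of its change is uncertain. The beta chains ITGB8 (-1.78, edgeR adjusted p = 0.00275) and ITGB5 (-1.41, edgeR adjusted p = 0.0119) fell. In HEK293T cells 0 of 15 elastic fibre partners, 0 of 29 other matrix glycoproteins and 0 of 13 receptors that could be tested there were called by edgeR, against 0.478% of all genes called higher and 0.0105% lower. With 6, 8 and 5 called higher and 7, 7 and 2 called lower in NPCs, calls in these lists stood in both directions.

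**Figure D4:**
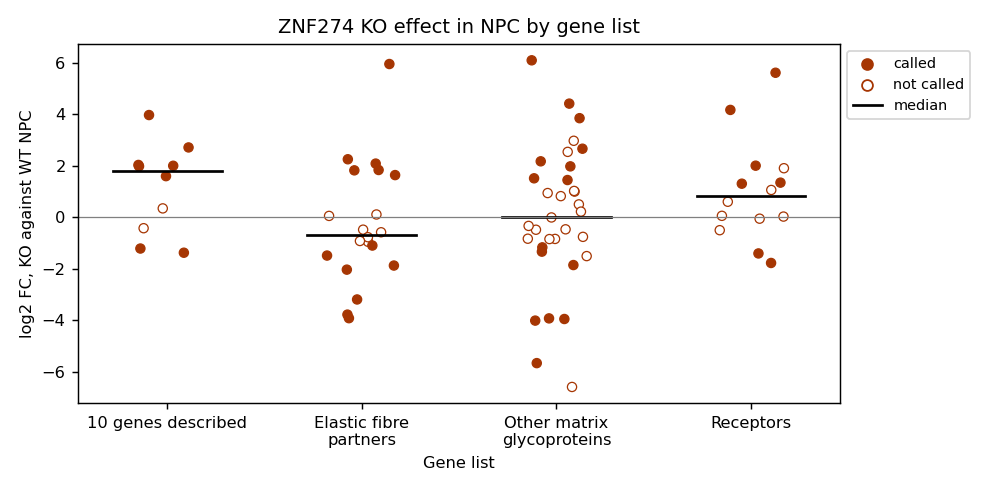
Fitted log2 FC of ZNF274 KO against WT in NPCs for the 10 genes and for 3 lists of related genes, with filled points for called genes and a black line at each median. The median is 1.78 for the 10 genes, -0.69 for elastic fibre partners, -0.015 for other matrix glycoproteins and 0.82 for receptors.

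Markers of cell types moved in the same libraries, and their part in the changes of the 10 genes was not tested. The counts called below compare with 8.45% of all genes called higher and 8.36% lower in KO NPCs. Of 8 mesenchyme and fibroblast markers 4 were called higher and 0 lower, and their summed level was 2133 and 1240 CPM in WT and 5958 and 5201 CPM in KO NPCs. COL1A1 had 646.5 and 559 CPM in WT and 3486 and 3571 CPM in KO NPCs, and COL3A1 89.7 and 48.1 against 1034 and 646 CPM. COL1A2 overlapped between the genotypes, with 1322 and 591 CPM in WT and 1208 and 823.5 CPM in KO NPCs. Of 9 neural progenitor markers 6 were called lower and 0 higher, although their sum, led by NES, was 2874 and 3821 CPM in WT and 3270 and 3239 CPM in KO NPCs. SOX2 had 228 and 220 CPM in WT and 12.9 and 21.5 CPM in KO NPCs, and HES5 was at 0 in both KO libraries. The neuronal sum was 1086 and 1176 CPM in WT and 219 and 177 CPM in KO NPCs, with 4 of 6 markers called lower, and MAP2 made up most of it (996 and 1091 CPM in WT, 167 and 131 CPM in KO NPCs). STMN2 had 15.1 and 18.1 CPM in WT and 26.01 and 15.9 CPM in KO NPCs. The smooth muscle sum, of which TAGLN was the only called member of 4, was 876 and 1157 against 3613 and 3628 CPM. Neural crest markers summed to 0.143 and 0.923 CPM in WT and 8.27 and 1.88 CPM in KO NPCs. SOX10 was called higher, and S1 held 7.27 and S2 1.42 CPM of it. In the epithelial list 2 of 5 were called higher (599 and 342 against 1317 and 1496 CPM), in the endothelial list 2 of 3 higher and 1 lower (24.3 and 120 against 41.8 and 56.3 CPM), and in the pluripotency list 1 of 3 lower (139 and 161 against 65.0 and 61.2 CPM). In WT HEK293T cells the mesenchymal sum was 25.1 to 31.9 CPM and COL1A2 was at 0 in every library.

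The genes most like 9 of the 10 (all but POSTN) were taken by Pearson correlation of log2(CPM + 1) over the 10 libraries, among 12462 genes. FN1 was closest to SLFN5 (r = 0.996) and P3H2, a collagen prolyl hydroxylase (0.995), and SPARC to SERPINH1, the collagen chaperone (0.991), and PXDN, a matrix peroxidase (0.990). FBN1 was closest to MAP1LC3C (0.994) and TPM4 (0.993), and TNC to ENTPD5 (0.980) and NT5E (0.978). THBS1 was closest to GLIPR1 (0.9998) and THBS2 to IL31RA (0.9997). FBN2 was closest to ZMYM2 (0.996), ELN to C4orf19 (0.997) and FBLN1 to TMEM254 (0.995). Among the 10 genes themselves the highest correlations were those of FN1 with FBN1 and of THBS1 with THBS2, both 0.987, and the lowest was that of POSTN with FBLN1 (0.335). These values describe 10 libraries of 2 cell types, which the genes share together with library and depth, and they carry no test.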

How the data were processed

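RNA was extracted with a spin-column kit and made into stranded poly(A) libraries. The authors mapped reads to hg19 with HISAT2 and counted them per gene with featureCounts (versions are not given in the sources used here), and they deposited 1 table of raw counts per cell type, with no normalization. Identifiers were named through GENCODE lifted to hg19, which holds 23273 of 24050. The 10 members and the lists were chosen with earlier results of these data known.

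From the deposited counts, KO was tested against WT within each cell type in R 4.3.3 with edgeR 4.0.16 (TMM, quasi-likelihood test, Benjamini-Hochberg adjustment over all genes tested), on genes whose total count was at least the number of libraries. WT cells of the 2 types and the interaction were tested in 1 fit of 10 libraries over 19255 of the 19665 genes in both tables. Log2 FCs of KO come from the fit of that cell type. Each standard error (SE) was derived from the edgeR test, as the absolute log2 FC divided by the square root of its F statistic. It is therefore not an estimate of error independent of the p-value. CPM and RPKM use TMM factors over all 10 libraries, so ratios of printed CPM differ slightly from fitted FCs. Intervals and floors cover counting error only, since the counts carry no molecular identifiers. Alternatives were DESeq2 1.42.0, voom (limma 3.58.1), other scalings and filters, and leaving out each library. The tests were tried on simulated counts first.

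Genes named beside the 10 were ZNF274, list members with the largest called changes (at most 3 per list and direction, at a mean of at least 1 CPM), cell type markers, and the 2 protein-coding genes most correlated with each member, of which some are left out. Within each group, counts of any 2 libraries differed by more than sampling noise, so each library was counted once.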

Additional observations from a re-analysis of the deposited data

Results flagged for a closer look

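The KO effect on FN1 and on FBLN1 differed between NPCs and HEK293T cells by the interaction test. For FN1 the effect was higher in NPCs by a log2 difference of 2.16, with both KO NPC libraries above both WT NPC libraries and overlapping libraries in HEK293T cells. For FBLN1 the log2 difference was -1.53, with both KO NPC libraries below both WT NPC libraries and overlapping libraries in HEK293T cells, where S18 was the highest.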

How the results depend on the processing

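With 2 libraries per genotype in NPCs, single libraries decided several calls. Leaving out each library in turn gave 2 to 6 members called higher and 1 to 2 called lower in KO NPCs, with the low counts without S1 and, for lower calls, also without S2 or S3. For the difference between cell types it gave 1 to 2 higher and 0 to 1 lower, and for WT NPCs against WT HEK293T cells 8 to 10 higher. Where 1 library is left out of the NPC fit, the lone library of its genotype is assumed to vary like the pair of the other. This holds for the calls lost without S1 or S2 and for all calls kept. A call kept in such a fit is therefore no support for it, and only the range of the log2 FC is informative. When all 10 libraries shared 1 fit, 1 member (FBLN1) was called lower in KO NPCs, and FBN1 and ELN were lost (edgeR adjusted p = 0.101 and 0.138). With DESeq2, 2 members had a called higher difference. The filter filterByExpr lost TNC and POSTN in NPCs (edgeR adjusted p = 0.0508 and 0.0522). FN1, THBS1, THBS2 and FBLN1 were called in NPCs under every alternative that kept all NPC libraries.

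In HEK293T cells signs turned without single libraries, with no call. The log2 FC ranged from -0.49 to 0.14 for FN1 (above 0 without S16 or S19), from -0.51 to 1.35 for TNC (below 0 without S18, and -0.23 without S15), from -0.096 to 0.40 for FBN2 (-0.042 without S15, lowest without S19) and from -0.0023 (without S18) to 0.52 for FBLN1. The difference for ELN ranged from -4.82 to 0.36 (without S18). The cause was not tested. Scaling by library size alone moved the median log2 FC of all genes from -0.0219 to -0.13 for KO NPCs and from -0.0253 to -0.238 for the difference. No paired analysis was possible because the labels give no replicate numbers that WT and KO libraries share.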
